A study of Mus musculus with 24 samples.

Results

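The nuclear genes of the respiratory chain and of ATP synthase were followed by RNA-seq in prefrontal cortex samples of male mice. Protein-coding rows of the deposited table were taken by symbol: the Nduf genes of complex I, Sdha to Sdhd of complex II, the Uqcr genes and Cyc1 of complex III, the Cox4 to Cox8 genes of complex IV and the Atp5 genes of complex V, without assembly factors. This gave 88 of 45777 genes, of which 38 belong to complex I, 4 to complex II, 9 to complex III, 20 to complex IV and 17 to complex V. Ndufa4 and Ndufa4l2 were counted with complex IV, in which their products are now placed. Complexes I to IV pass electrons taken from NADH and succinate to oxygen and, at I, III and IV, pump protons out of the mitochondrial matrix. Complex V, the ATP synthase, lets the protons back and makes ATP. Most subunits come from nuclear genes and are joined in the inner membrane to a small set encoded by mitochondrial DNA; neurons depend on this system for the cost of ion pumping and synaptic release.

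All 24 libraries came from wild-type adult mice and 6 belonged to each of 4 groups. MS_EC12 mice had been separated from the dam as pups (maternal separation, MS, an early-life stress) and received EC-12, heat-killed Enterococcus faecalis, for 5 weeks. MS mice had been separated without EC-12, Control_EC12 mice received EC-12 for 5 weeks without separation, and Control mice had neither. The labels give no strain, no age in days and no days of separation. Whether libraries come from separate animals is not stated either, so p-values measure the spread between libraries, which may in part be technical.

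Total counts ran from 26250197 to 39252382 per library. The libraries differed in how their levels depended on the GC content of genes. This was measured as the slope of a library's deviation in log2 CPM (counts scaled to a common library total) on GC, per 10 percentage points. The slope was above 0 in 4 MS_EC12 libraries (replicates 3, 4, 5 and 6), 1 MS library (replicate 3), 2 Control_EC12 libraries (replicates 3 and 4) and 0 Control libraries, and below 0 in the other 17. The 88 genes moved with it: their summed level was 12147 to 14845 CPM in the 7 libraries above 0 and 10055 to 11504 CPM in the 17 below 0, so the ranges did not touch. The part of this dependence in each group difference below was not tested as a cause, and values from the 17 libraries alone are given for each complex and for each related gene list. Of the tissue's markers, the summed level of 7 neuronal genes was 5287 to 7572 CPM over all libraries and that of 7 genes of cortical layers 304 to 413 CPM. In 1 library, MS_EC12 replicate 6, the choroid plexus gene Ttr reached 642 CPM. In bulk tissue, fewer cells of a type and less RNA per cell cannot be told apart.

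Nearly all of the genes were measured deeply. The filter on low counts left 86 of the 88; the other 2 were Cox8b, a muscle form with 0 to 37 counts per library, and Cox8c, a testis form with 0 counts in every library. On the authors' TPM scale, which corrects for transcript length, the highest means over the 24 libraries were those of Cox4i1 at 1519 TPM, Cox8a at 1466 TPM, the ATP synthase beta subunit gene Atp5b at 1373 TPM, Cox6b1 at 1066 TPM and Ndufa4 at 1008 TPM. Within the other complexes the highest were Uqcrh at 634 TPM, Ndufa3 at 511 TPM and the flavoprotein gene Sdha at 322 TPM. The lowest tested member of each complex was Ndufb4c at 27.7 TPM, Sdhd at 145 TPM, Uqcrq at 175 TPM, Cox7b2 at 1.07 TPM and Atp5pb at 282 TPM. Complex IV held 31.8 ± 0.587% of the summed TPM of the 88 genes in MS_EC12, 30.7 ± 0.447% in MS, 31.1 ± 0.622% in Control_EC12 and 30.8 ± 0.559% in Control libraries (SD, n = 6 each). Complex II held 2.55 ± 0.301% in MS_EC12, 2.85 ± 0.162% in MS, 2.82 ± 0.294% in Control_EC12 and 2.97 ± 0.0534% in Control libraries (SD, n = 6 each).

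Complex IV has several subunits encoded by more than 1 gene, one of them widespread and the other tied to muscle, lung or testis in textbook accounts. In this tissue the widespread gene dominated every pair. Over all 24 libraries the level of Cox4i2 was 0.261 ± 0.0701% of that of Cox4i1, that of Cox6b2 was 0.557 ± 0.148% of Cox6b1 and that of Cox7b2 was 0.343 ± 0.169% of Cox7b (mean ± SD of authors' TPM ratios, n = 24). Cox6a2 stood at 2.00 ± 0.291% of Cox6a1, Ndufa4l2 at 0.485 ± 0.103% of Ndufa4 and Cox8b at 0.0468 ± 0.0639% of Cox8a. Cox7a1, the heart and muscle form, was 1.38 ± 0.366% of Cox7a2 in MS_EC12, 1.502 ± 0.270% in MS, 1.78 ± 0.138% in Control_EC12 and 1.26 ± 0.306% in Control libraries (SD, n = 6 each). The 3 genes for the c subunit of the ATP synthase rotor, whose mature product is the same, were all well expressed: Atp5g3 at 677 TPM, Atp5g1 at 346 TPM and Atp5g2 at 287 TPM.

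**Figure D1:**
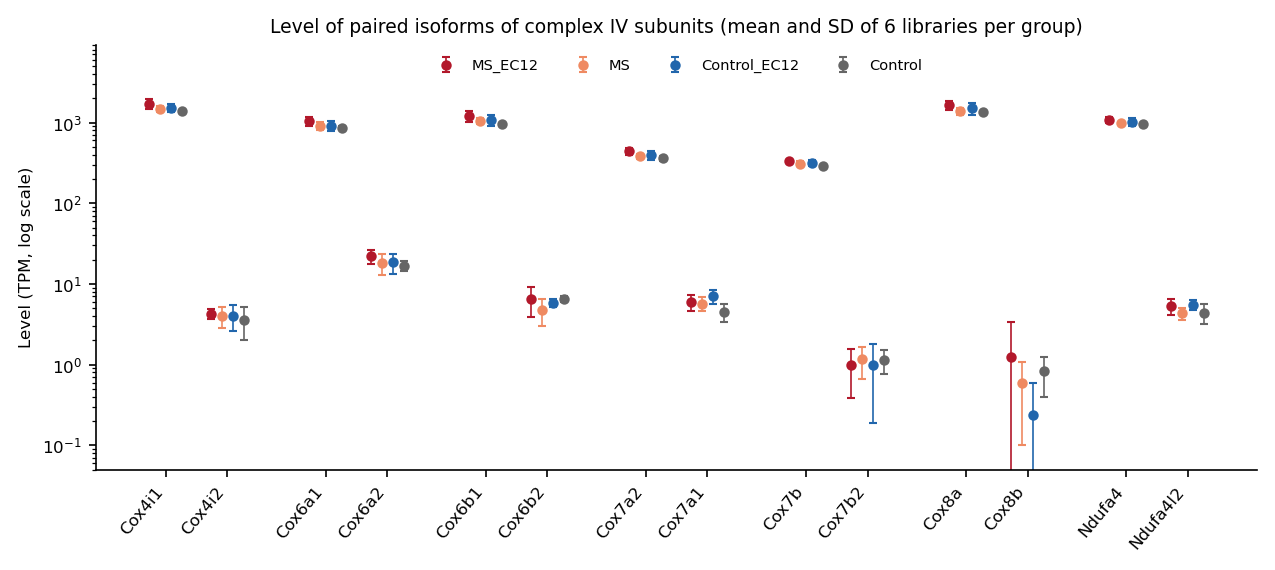
Level of paired isoform genes of complex IV in TPM on a log axis, with 1 gene per tick and the groups side by side; points are means and bars the SD of 6 libraries. The minor gene of each pair lies far below its partner in all 4 groups; Cox8b has zeros in 3 groups and its lower bar ends at the axis where the SD exceeds the mean.

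Several promoters of this gene set are known for NRF1 and GABP sites, which are also called nuclear respiratory factors. RefSeq windows (GRCm38.p6) from 250 bases before to 50 bases after the transcription start were at hand for 70 members and 17519 protein-coding genes. The NRF1 motif, searched as GCGC on both sides of an A and a free base, was found on either strand in 17 of the 70 windows, which is 24.3%, against 7.17% of all windows of this length. The YY1 motif AAGATGGC was in 10 of 70 or 14.3% against 3.56%, and the ETS family letters CGGAAG, which GABP binds, in 29 of 70 or 41.4% against 23.5%. The ERR-alpha motif TCAAGGTCA was in 2 of 70 or 2.86% against 0.382%. TATAAA was in 8 of 70 or 11.4% against 14.8%, and the SP1 letters GGGCGG in 29 of 70 or 41.4% against 49.2%. Matches of different motifs shared bases in 2 of the 70 windows. Members with the NRF1 letters and members without them are both among those with a higher level in MS_EC12 than in Control libraries. Windows of 5 such genes, which passed the test described below, are shown to let both kinds be compared. Ndufb3 (chr1:58586147-58586446, + strand) and Cox7c (chr13:86046746-86047045, - strand) have none of the NRF1, YY1 or ETS letters. Uqcrc1 (chr9:108936398-108936697, + strand), Cox6a1 (chr5:115348909-115349208, - strand) and Atp5g2 (chr15:102670998-102671297, - strand) have NRF1 matches, and the last 2 also an ETS match. Each is written 5′ to 3′ along the gene, and capitals mark those matches.
Ndufb3: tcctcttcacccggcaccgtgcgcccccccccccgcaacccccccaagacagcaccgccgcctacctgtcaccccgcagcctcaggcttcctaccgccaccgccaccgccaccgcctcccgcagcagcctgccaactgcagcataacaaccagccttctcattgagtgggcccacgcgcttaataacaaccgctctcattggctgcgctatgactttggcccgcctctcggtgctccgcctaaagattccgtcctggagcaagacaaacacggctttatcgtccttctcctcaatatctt
Uqcrc1: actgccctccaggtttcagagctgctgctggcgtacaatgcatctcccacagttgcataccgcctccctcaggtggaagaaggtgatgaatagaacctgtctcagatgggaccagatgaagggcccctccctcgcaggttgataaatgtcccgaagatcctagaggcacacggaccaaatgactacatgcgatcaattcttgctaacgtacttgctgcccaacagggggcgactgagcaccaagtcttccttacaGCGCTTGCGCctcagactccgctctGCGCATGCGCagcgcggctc
Cox7c: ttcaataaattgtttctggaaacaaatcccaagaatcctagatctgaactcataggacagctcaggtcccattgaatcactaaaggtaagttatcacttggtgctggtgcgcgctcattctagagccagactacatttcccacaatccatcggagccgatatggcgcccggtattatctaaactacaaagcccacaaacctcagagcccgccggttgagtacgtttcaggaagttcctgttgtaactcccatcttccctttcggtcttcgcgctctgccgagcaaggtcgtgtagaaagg
Cox6a1: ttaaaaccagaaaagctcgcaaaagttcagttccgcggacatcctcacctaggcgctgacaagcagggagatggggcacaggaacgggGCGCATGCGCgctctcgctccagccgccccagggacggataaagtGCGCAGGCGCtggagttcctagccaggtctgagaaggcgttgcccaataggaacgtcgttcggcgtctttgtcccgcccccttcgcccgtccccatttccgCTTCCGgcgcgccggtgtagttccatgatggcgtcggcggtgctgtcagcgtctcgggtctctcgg
Atp5g2: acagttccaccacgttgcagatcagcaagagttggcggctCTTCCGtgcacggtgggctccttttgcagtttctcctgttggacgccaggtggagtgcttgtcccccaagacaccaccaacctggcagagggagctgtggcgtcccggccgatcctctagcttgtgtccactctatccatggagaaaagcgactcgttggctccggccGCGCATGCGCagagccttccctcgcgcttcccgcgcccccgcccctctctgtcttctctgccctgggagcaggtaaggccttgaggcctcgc
Of the 17 members with NRF1 letters, 10 were called higher in MS_EC12 than in Control libraries, with a median log2 fold change of 0.30. Of the 53 without, which include Cox8b, left out by the filter on low counts, 36 were, with a median of 0.34 over those tested. A match is a run of letters and not a shown binding site.

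MS_EC12 against Control combines separation and supplement and gave the only calls among these genes. Most subunit genes of every complex were higher in MS_EC12 libraries, with a median fold of 1.27. With edgeR's quasi-likelihood test, adjusted by Benjamini and Hochberg over 18380 genes, 56 of 86 members rose and 0 fell, while 7.31% of all genes rose, 6.8% fell and 14.1% did either. The rise covered 25 of 38 genes of complex I, 2 of 4 of complex II, 8 of 9 of complex III, 10 of 18 of complex IV and 11 of 17 of complex V. The median log2 fold change was 0.31, 0.23, 0.36, 0.37 and 0.39 for complexes I, II, III, IV and V in that order, and 0.34 over the 86, where all genes tested had 0.01. In 25 of the 86 every MS_EC12 library lay above every Control library, which held for 2.57% of all genes. Of the 86, 81 had a log2 fold change above 0 and 74 an unadjusted p under 0.05, as did 38.3% of all genes.

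The count of calls turned on single libraries, though the median did not. No member was called without Control replicate 5 (0.0485% of all genes called), nor without MS_EC12 replicate 3 (0.682%), 4 (0.601%) or 6 (0.0541%). The count was 3 without Control replicate 3 (1.26%), 5 without replicate 1 (1.31%), 7 without replicate 6 (1.77%), 9 without replicate 4 (2.0%) and 12 without replicate 2 (1.7%) of Control, and 20 without MS_EC12 replicate 5 (2.65%). It was higher than 56 without Control_EC12 replicate 3, at 58 (22.3%), and without Control_EC12 replicate 4, at 69 (22.3%). It was also higher without MS_EC12 replicate 2, at 66 (33.2%), and without MS_EC12 replicate 1, at 76 (35.4%). Calls lower in MS_EC12 were 1 without Control_EC12 replicate 3 and 3 in each of the last 2 refits. Over all such omissions the median log2 fold change stayed between 0.31 and 0.39. DESeq2 called 64 higher, where it called 11.9% of all genes higher.

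**Figure D2:**
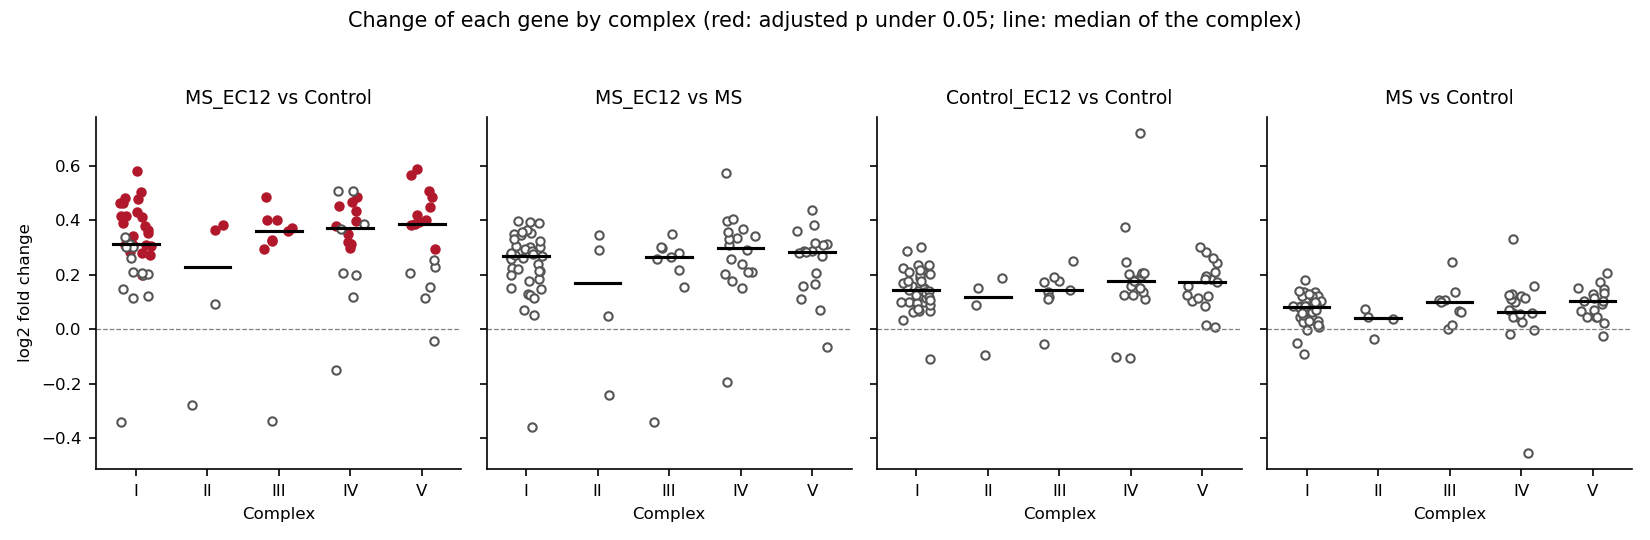
Log2 fold change (y axis) of each of the 86 genes tested by complex (x axis) in 4 comparisons; red points passed the test at an adjusted p of 0.05, open points did not, and black lines are the medians. Calls appear in MS_EC12 against Control, 56 in number, and the open points of MS_EC12 against MS lie almost as high.

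Complex I, which oxidises NADH, showed the rise in its electron-carrying arm and in its membrane arm. Ndufb3, an accessory subunit of the membrane arm, measured 67.5, 82.5 and 87.5 CPM in MS_EC12 libraries (lowest, median and highest), against 56.8, 62.4 and 67.0 CPM in Control libraries. The groups did not overlap, and its log2 fold change was 0.34 ± 0.08 (SE, adjusted p = 0.0207, n = 6 each). Ndufa7, another accessory subunit, had 58.1, 75.7 and 99.6 CPM in MS_EC12 libraries, against 46.7, 50.5 and 53.9 CPM in Control libraries, again without overlap; the difference was 0.58 ± 0.14 on the log2 scale (SE, adjusted p = 0.0275). Ndufs8, a core subunit with iron-sulfur clusters on the way to ubiquinone, measured 70.2, 89.7 and 100.8 CPM in MS_EC12, against 60.02, 65.8 and 68.3 CPM in Control libraries (log2 fold change 0.41 ± 0.10, adjusted p = 0.0280). These 3 genes thus lay higher in all 6 MS_EC12 libraries than in any Control library. Ndufa13, whose span overlaps Tssk6, rose with slightly overlapping ranges: 116, 146 and 185 CPM in MS_EC12 libraries, against 94.9, 103 and 117 CPM in Control libraries (0.48 ± 0.12, adjusted p = 0.0272).

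The core subunits of complex I did not all move alike. Ndufs7, with the last cluster before ubiquinone, rose with a log2 fold change of 0.43 ± 0.11 (adjusted p = 0.0325). Ndufv1, which binds NADH and FMN, rose with one of 0.28 ± 0.09 (adjusted p = 0.0436). Ndufv2 at 0.21 ± 0.08 and Ndufs3 at 0.12 ± 0.07 did not pass (adjusted p = 0.0799 and 0.204). Ndufs1, the large iron-sulfur core subunit, pointed the other way without passing: it had 76.0, 104 and 158 CPM in MS_EC12 libraries, against 133, 142 and 147 CPM in Control libraries (−0.34 ± 0.16, adjusted p = 0.122). MS_EC12 libraries thus lay on both sides of the Control range for Ndufs1. The most and the least abundant tested members, Ndufa3 (0.42 ± 0.14, adjusted p = 0.0485) and Ndufb4c (0.30 ± 0.12, adjusted p = 0.0728), both had values above 0. In the 17 libraries of GC slope below 0 none of these passed, and the log2 fold changes were 0.13 for Ndufb3, 0.26 for Ndufa7, 0.12 for Ndufs8, 0.18 for Ndufa13, 0.10 for Ndufs7 and −0.01 for Ndufv1. Ndufb4, Ndufb4b and Ndufb4c are near-identical copies among which reads could be split.

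Complex II, succinate dehydrogenase, has no subunit from mitochondrial DNA and also belongs to the citric acid cycle. Its 4 genes split. Sdhc, a membrane anchor, measured 90.1, 104 and 131 CPM in MS_EC12, 75.5, 82.2 and 98.8 CPM in MS, 77.2, 88.6 and 108 CPM in Control_EC12 and 76.0, 81.5 and 86.4 CPM in Control libraries. MS_EC12 lay wholly above Control, at a log2 fold change of 0.38 ± 0.09 (adjusted p = 0.0250). Sdhb, the iron-sulfur subunit, rose by 0.36 ± 0.11 (adjusted p = 0.0367), with 106, 134 and 158 CPM in MS_EC12 and 96.7, 105 and 108 CPM in Control libraries. Sdhd, the other anchor, was at 0.09 ± 0.06 (adjusted p = 0.277). Sdha, the catalytic flavoprotein, had 261, 331 and 443 CPM in MS_EC12, 327, 419 and 448 CPM in MS, 288, 406 and 428 CPM in Control_EC12 and 401, 416 and 434 CPM in Control libraries, and did not pass at −0.28 ± 0.11 (adjusted p = 0.0692). Neither Sdhc, at 0.17, nor Sdhb, at 0.09, passed in the 17 libraries. Sdha is the most abundant of the 4, and the summed level of complex II was 665 ± 34.6 CPM in MS_EC12, 678 ± 29.3 CPM in MS, 680 ± 47.6 CPM in Control_EC12 and 679 ± 9.82 CPM in Control libraries (SD, n = 6 each).

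In complex III, which hands electrons from ubiquinol to cytochrome c, 8 of 9 genes rose. Uqcr11, a small accessory subunit, measured 100.02, 120.2 and 148 CPM in MS_EC12, 86.03, 94.2 and 107 CPM in MS, 82.1, 84.0 and 138 CPM in Control_EC12 and 79.6, 85.9 and 93.3 CPM in Control libraries (0.48 ± 0.11 for MS_EC12 against Control, adjusted p = 0.0240). All MS_EC12 libraries were above all Control libraries. Cyc1, the cytochrome c1 subunit, rose by 0.33 ± 0.10 (adjusted p = 0.0386), Uqcrfs1, the Rieske iron-sulfur protein, by 0.32 ± 0.08 (adjusted p = 0.0309), and the core protein Uqcrc1 by 0.37 ± 0.10 (adjusted p = 0.0339). The accessory subunits Uqcrh (0.40 ± 0.10, adjusted p = 0.0306) and Uqcrq (0.29 ± 0.10, adjusted p = 0.0446) rose too. Uqcrc2, the partner of Uqcrc1 in the core, was the exception, with 95.2, 143 and 196 CPM in MS_EC12 libraries, against 175, 186 and 191 CPM in Control libraries (−0.34 ± 0.16, adjusted p = 0.121). Uqcr11 passed in the 17 libraries, at 0.25, whereas Cyc1 at 0.02, Uqcrfs1 at 0.08, Uqcrc1 at 0.04, Uqcrh at 0.18 and Uqcrq at 0.07 did not. The span of Uqcrc2 overlaps Pdzd9, and that of Uqcrq overlaps Gdf9.

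In complex IV, cytochrome c oxidase, 10 of 18 genes rose. Cox7c had 149, 186 and 222 CPM in MS_EC12 libraries, against 125, 133 and 143 CPM in Control libraries (0.47 ± 0.11, adjusted p = 0.0227). Cox6c had 194, 224 and 288 CPM in MS_EC12 libraries, against 157, 164 and 184 CPM in Control libraries (0.49 ± 0.12, adjusted p = 0.0250). Cox4i1, a regulatory subunit that binds nucleotides, had 454, 600 and 663 CPM in MS_EC12 libraries, against 415, 419.7 and 448 CPM in Control libraries (0.43 ± 0.11, adjusted p = 0.0275). None of these 3 overlapped between the groups. Cox5b passed at 0.30 ± 0.09 (adjusted p = 0.0354) and its partner Cox5a did not at 0.21 ± 0.08 (adjusted p = 0.0665). Cox6a1, Cox6b1, Cox7a2, Cox7b, Cox8a and Ndufa4 rose as well, at log2 fold changes of 0.31 to 0.45. The minor isoforms had larger errors: Cox4i2 was at 0.37 ± 0.27, Cox6a2 at 0.51 ± 0.21, Cox6b2 at 0.12 ± 0.22, Cox7a1 at 0.51 ± 0.20, Cox7b2 at −0.15 ± 0.48 and Ndufa4l2 at 0.39 ± 0.19, and 0 of these 6 passed (adjusted p from 0.0714 to 0.840). Cox7a2l, a factor that joins complexes III and IV, was at 0.20 ± 0.08 (adjusted p = 0.0785). Whether abundant and minor isoforms differ in their response was not tested. Cox7b passed in the 17 libraries, at 0.23, and Cox7c at 0.21, Cox6c at 0.25, Cox4i1 at 0.10 and Cox5b at 0.03 did not. Spans of Cox6a2, Cox4i2, Cox7a2 and Ndufa4l2 overlap Itgad, Bcl2l1, Tmem30a and Shmt2 in that order.

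In ATP synthase 11 of 17 genes rose, among them genes of the rotor's c ring, the peripheral stalk and the membrane part. Those of the alpha, beta and gamma subunits did not pass. Atp5g2, for the c ring of the rotor, measured 79.2, 102 and 136 CPM in MS_EC12, 65.7, 70.6 and 95.7 CPM in MS, 67.8, 75.9 and 116 CPM in Control_EC12 and 64.0, 69.2 and 70.3 CPM in Control libraries. Its log2 fold change against Control was 0.57 ± 0.13 (adjusted p = 0.0223), without overlap; those of Atp5g1 and Atp5g3 were 0.39 ± 0.13 (adjusted p = 0.0479) and 0.30 ± 0.08 (adjusted p = 0.0348). Atp5h, of the peripheral stalk, had 156, 202 and 230.1 CPM in MS_EC12 libraries, against 137, 147 and 155 CPM in Control libraries (0.42 ± 0.10, adjusted p = 0.0250). Atp5mpl, a small proteolipid, gave the highest log2 fold change of the 86, 0.59 ± 0.15 (adjusted p = 0.0281), with 51.6, 67.1 and 94.4 CPM in MS_EC12 libraries and 41.8, 45.9 and 52.5 CPM in Control libraries. These ranges overlap slightly for Atp5mpl and just clear each other for Atp5h. The alpha and beta subunits of the head, Atp5a1 (0.11 ± 0.05, adjusted p = 0.129) and Atp5b (0.23 ± 0.08, adjusted p = 0.0620), fell short of the threshold. So did the gamma subunit of the rotor, Atp5c1 (0.21 ± 0.08, adjusted p = 0.0668), and the stalk subunit Atp5pb at −0.04 ± 0.10 (adjusted p = 0.765). None of Atp5g2 at 0.24, Atp5h at 0.14 and Atp5mpl at 0.25 passed in the 17 libraries. Atp5a1 overlaps Haus1.

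The supplement was also compared within each rearing. In MS_EC12 against MS, 81 of 86 log2 fold changes were above 0, with a median of 0.28 (all genes 0.02), but 0 members passed, where 0.163% of all genes did; 66 had an unadjusted p under 0.05, as did 31.8% of all genes. The smallest adjusted p belonged to Sdhc, at 0.34 ± 0.09 (adjusted p = 0.0754), then Atp5g2 at 0.44 ± 0.13 (adjusted p = 0.0798). Sdha was at −0.24 ± 0.11 (adjusted p = 0.131) and Ndufs1 at −0.36 ± 0.16 (adjusted p = 0.135). The count changed with the tool and with single libraries. DESeq2 called 22 members higher (4.59% of all genes). The edgeR count in either direction was 43 without MS replicate 3 (21.3% of all genes called) and 22 without Control_EC12 replicate 4 (4.85%). It was 58 without MS_EC12 replicate 1 (27.2%) and 51 without MS_EC12 replicate 2 (24.9%). Of these, 1, 0, 2 and 3 were lower in MS_EC12, in that order.

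In Control_EC12 against Control, 81 of 86 were above 0 with a median of 0.15 (all genes 0.01). None of the 86 passed, where 0.0218% of all genes did; 8 had an unadjusted p under 0.05, against 8.93% of all genes, and DESeq2 called 0. Cox7a1 came closest: it had 0.891, 1.03 and 1.78 CPM in Control_EC12 libraries, against 0.449, 0.675 and 0.921 CPM in Control libraries, a log2 fold change of 0.72 ± 0.20 (adjusted p = 0.209) at 12 to 60 counts per library over the series. Uqcrb, an accessory subunit of complex III, was at 0.25 ± 0.10 (adjusted p = 0.469), Sdha at −0.10 ± 0.11 (adjusted p = 0.778) and Ndufs1 at −0.11 ± 0.16 (adjusted p = 0.832). This comparison shares its Control libraries with MS_EC12 against Control and with MS against Control.

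Separation alone gave the smallest median of the 5 group comparisons in all 24 libraries, though not in the 17 of GC slope below 0. In MS against Control the median was 0.08 (all genes −0.01), 78 of 86 were above 0 and none passed, where 0.0326% of all genes did; 1 had an unadjusted p under 0.05, against 3.6% of all genes, and DESeq2 called 0. That gene was Uqcrb, with 58.4, 61.7 and 72.0 CPM in MS libraries, against 47.5, 53.3 and 60.4 CPM in Control libraries (0.25 ± 0.10, adjusted p = 1.00). Cox7a1 at 0.33 ± 0.20 followed it among the values above 0, and Cox6b2 at −0.45 ± 0.23 and Ndufb4c at −0.09 ± 0.12 had the smallest p among those below 0 (adjusted p = 1.00 for each).

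In MS_EC12 against Control_EC12 the median was 0.19 (all genes −0.02), 79 of 86 were above 0 and none passed, where 0.261% of all genes did; 27 had an unadjusted p under 0.05, against 15.9% of all genes, and DESeq2 called 0. Ndufb3 at 0.25 ± 0.08 (adjusted p = 0.188) had the smallest p among those above 0, and Uqcrc2 at −0.28 ± 0.16 (adjusted p = 0.334) and Sdha at −0.18 ± 0.11 (adjusted p = 0.349) among those below. Without Control_EC12 replicate 4, 5 members were called higher, where 0.698% of all genes were called: Atp5j2, Cox6c, Cox7b, Ndufa4 and Uqcr11. The interaction, which asks whether the EC-12 difference depends on rearing, had a median of 0.11 over the 86 and 0 calls (0.0109% of all genes); 1 member, Cox6b2 at 0.68 ± 0.32 (adjusted p = 0.830), had an unadjusted p under 0.05, against 4.8% of all genes, and DESeq2 called 0. Next to it stood Ndufb8 at 0.20 ± 0.12, Cox7a1 at −0.54 ± 0.28 and Uqcrc2 at −0.29 ± 0.22 (adjusted p = 0.830 for each). A difference in the EC-12 response between rearings was thus not detected at this spread.

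Summed over all 88 genes, the level was 12870 ± 1374 CPM in MS_EC12, 11160 ± 496 CPM in MS, 11550 ± 1805 CPM in Control_EC12 and 10629 ± 152 CPM in Control libraries (SD, n = 6 each). The spread differed between groups too. MS_EC12 libraries ran from 11008 to 14438 CPM, MS libraries from 10800 to 12147 CPM, Control_EC12 libraries from 10055 to 14845 CPM and Control libraries from 10488 to 10838 CPM. The highest of all 24 was therefore in Control_EC12, as was the lowest. By complex, the mean in MS_EC12 was above that in Control by 22.4% for complex I, 20.3% for complex III, 29.7% for complex IV and 19.1% for complex V, and lay 1.97% below it for complex II.

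**Figure D3:**
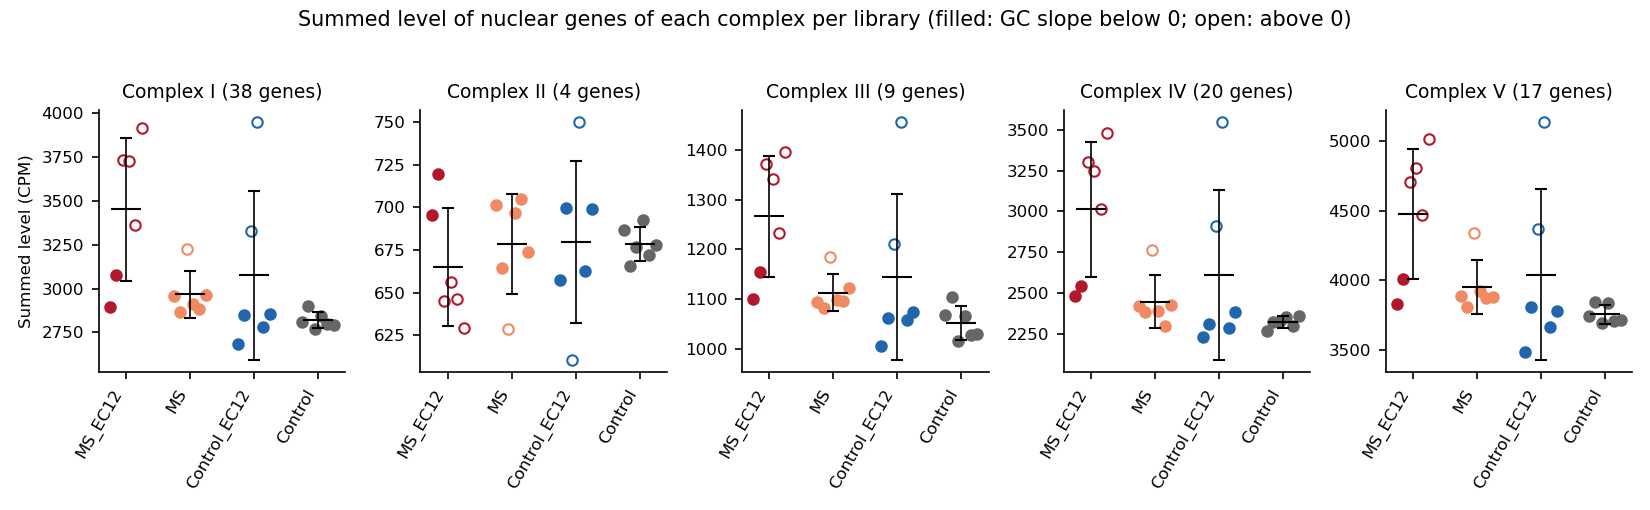
Summed level of each complex in CPM (y axis) per library, by group (x axis); filled points are libraries with a GC slope below 0, open points those above 0, and bars give the mean and SD of 6 libraries. Open points lie above the filled ones in complexes I, III, IV and V, whereas in complex II 6 of the 7 open points lie below the filled ones.

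Members also lined up by library. Of the 86 genes, 82 had a higher mean in the 7 libraries with a GC slope above 0 than in the 17 below 0, and for 56 all 7 libraries lay above all 17; these were 22 of 38 in complex I, 2 of 4 in complex II, 7 of 9 in complex III, 10 of 18 in complex IV and 15 of 17 in complex V. The median difference over the members was 0.40 on the log2 scale. The share of all genes tested that separate in this way was not counted, so these counts do not set the members apart from other genes. The 4 members with a lower mean in the 7 libraries were Ndufs1, Sdha, Uqcrc2 and Atp5pb. For Ndufs1, Sdha and Uqcrc2 the 6 libraries above 0 other than Control_EC12 replicate 4 lay below all 18 others: 75.6 to 105 CPM against 133 to 162 CPM for Ndufs1, 261 to 336 CPM against 393 to 448 CPM for Sdha, and 95.2 to 144 CPM against 175 to 225 CPM for Uqcrc2. Control_EC12 replicate 4, with the smallest slope of the 7 (0.10 log2 per 10 points), had 225 CPM of Uqcrc2, the highest of all libraries. It also had the highest summed level of the 88 genes, at 14845 CPM.

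**Figure D4:**
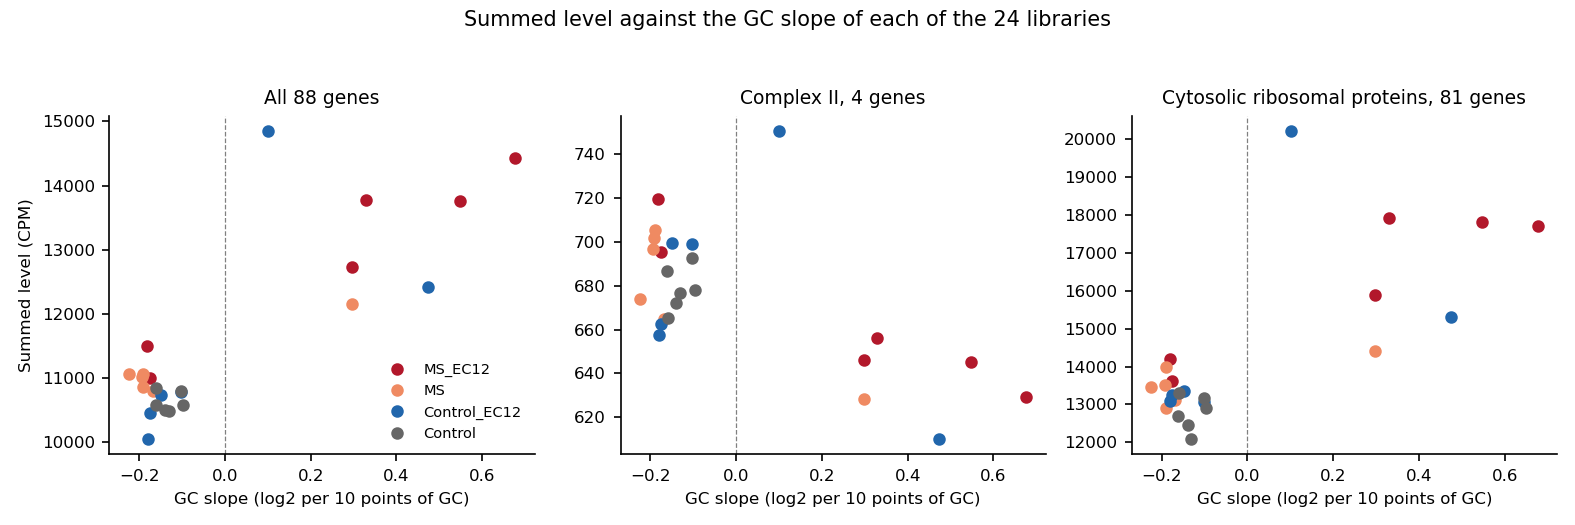
Summed level in CPM (y axis) against the GC slope (x axis, log2 units per 10 percentage points of GC) of each of the 24 libraries, for the 88 genes, for complex II and for cytosolic ribosomal protein genes. The 7 libraries right of the dashed line at 0 hold 12147 to 14845 CPM of the 88 genes and the 17 left of it 10055 to 11504 CPM; complex II runs the other way but for 1 Control_EC12 library.

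With those 7 libraries left out, 2 MS_EC12, 5 MS, 4 Control_EC12 and 6 Control libraries remained. The summed level was then 11008 and 11504 CPM in MS_EC12, 10800 to 11069 CPM in MS, 10055 to 10787 CPM in Control_EC12 and 10488 to 10838 CPM in Control libraries. In MS_EC12 against Control the median log2 fold change was 0.10 in place of 0.34 and 79 of 86 were above 0. There, 3 members rose, against 0.419% of all genes: Cox7b by 0.23 (adjusted p = 0.0314), Ndufc2 by 0.25 (adjusted p = 0.0382) and Uqcr11 by 0.25 (adjusted p = 0.0454). Cox7b, an accessory subunit of complex IV, had 137 to 163 CPM in all 6 MS_EC12 libraries and 115 to 124 CPM in Control libraries. The MS_EC12 range overlapped those of the other groups, which reached 138 CPM in MS and 183 CPM in Control_EC12 libraries. The difference in Cox7b between libraries above and below 0 in slope was 0.23 on the log2 scale, against a median of 0.40 over the members. MS_EC12 against Control_EC12 had a median of 0.11 and 1 member called, Atp5md, against 0.0628% of all genes. The medians were 0.05 in MS_EC12 against MS, 0.05 in MS against Control and −0.01 in Control_EC12 against Control, each with 0 calls. Ndufs1, Sdha and Uqcrc2 were above 0 in MS_EC12 against Control within these libraries, at 0.11, 0.02 and 0.05, and did not pass.

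**Figure D5:**
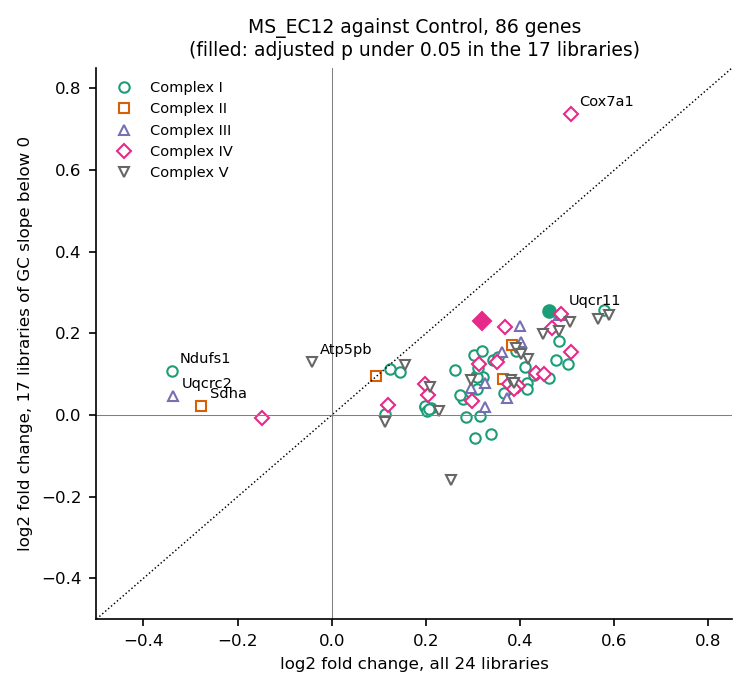
Log2 fold change of MS_EC12 against Control for each of the 86 genes in all 24 libraries (x axis) and in the 17 with a GC slope below 0 (y axis); marker shape gives the complex and filled markers passed the test in the 17 libraries. Most points lie below the dotted line of equality and above 0 on the y axis; the 3 filled ones are Cox7b, Ndufc2 and Uqcr11.

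Other ways of treating the GC dependence gave other counts. With a term for the sign of the slope in the fit, chosen after seeing the data, MS_EC12 against Control had a median of 0.09 over the 86 and 0 calls, where 0.0381% of all genes rose; 22 members had an unadjusted p under 0.05, against 8.35% of all genes. With an offset that removes each library's trend on GC gene by gene, 53 members rose, 43 of them among the 56, at a median of 0.32 and with 6.81% of all genes rising. Under the offset Atp5pb was among those that rose, at 0.34 (adjusted p = 0.0269). The members' own GC content had a median of 51.6%, close to the 50.9% of all genes tested. Across genes, which are not independent, the rank correlation of GC with the log2 fold change in MS_EC12 against Control was 0.321 over 84 members and 0.644 over 15145 genes.

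The members below 0 in that comparison were not short transcripts, with 1 exception. The longest annotated transcript was 2661 bases for Ndufs1, 2900 for Sdha, 1896 for Uqcrc2 and 2527 for Atp5pb, against a median of 1003 bases over 84 members, while Cox7b2, at 542 bases, was measured with 0 to 22 counts. Members of up to 750 bases had a median log2 fold change of 0.38 (n = 22), those over 1500 bases 0.31 (n = 29). The longest annotated transcript, 6310 bases for Atp5l and 4715 for Atp5g1, need not be the one measured, so these bins may mix lengths. Length and log2 fold change had a rank correlation of −0.202 over the 84 members and −0.458 over all genes with a length.

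Related lists were counted in the same way, and they too were drawn up with earlier results known. In MS_EC12 against Control 7.31% of all genes rose and 6.8% fell, and in the 17 libraries 0.419% rose. Counts of 1 or 2 calls in the short lists below do not set them apart from these shares. Of the 13 subunit genes of mitochondrial DNA, which complete complexes I, III, IV and V, 4 rose in MS_EC12 against Control and 8 had values above 0, with a median of 0.13. In the 17 libraries 1 rose and 13 of 13 were above 0, with a median of 0.23; in MS_EC12 against MS the median was 0.13 in all 24 libraries and 0.27 in the 17, with 0 calls in both. Their sum was 75724 ± 7211 CPM in MS_EC12, 66822 ± 4120 CPM in MS, 75487 ± 15803 CPM in Control_EC12 and 69721 ± 6665 CPM in Control libraries (SD, n = 6 each). Unlike the nuclear sum, it overlapped between libraries above and below 0 in GC slope, at 60356 to 105179 CPM against 62138 to 85610 CPM. Of 49 assembly factors tested, 11 rose at a median of 0.17; of 15 regulators of mitochondrial biogenesis, among them Nrf1 and Gabpa, 0 rose and 2 fell at a median of −0.14. Among 18 genes of pyruvate dehydrogenase and the citric acid cycle, 2 rose (median 0.06); among 8 of cytochrome c and carriers, 1 (median 0.08); and among 16 of glycolysis, 2 (median 0.17). For MS_EC12 against Control, none of these 5 lists had a call in the 17 libraries. The medians were then 0.09 for assembly factors, −0.08 for regulators, 0.04 for pyruvate dehydrogenase and the citric acid cycle, 0.09 for cytochrome c and carriers, and −0.02 for glycolysis. For MS against Control, 1 regulator was called lower in the 17 libraries, where 0.435% of all genes were called.

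Cytosolic ribosomal protein genes, short and abundant like many of the members but outside mitochondria, rose in 63 of 78 cases in MS_EC12 against Control. Their median was 0.40, and 7.31% of all genes rose. In the 17 libraries 3 of 78 rose, at a median of 0.13, against 0.419% of all genes. Their sum was 14413 to 20194 CPM in the 7 libraries above 0 and 12098 to 14209 CPM in the 17 below. Glycolytic genes summed to 12081 to 14061 CPM and 9398 to 11399 CPM in the same libraries. Markers of cell types moved with the slope as well: the 7 neuronal markers summed to 5287 to 6856 CPM in the 7 libraries and 6074 to 7572 CPM in the 17, the 5 microglial markers to 318 to 367 CPM and 265 to 331 CPM, and the 6 oligodendrocyte markers to 4850 to 6296 CPM and 3847 to 5458 CPM. Pvalb, a gene of fast-spiking interneurons, which are rich in mitochondria, was at 32.5 to 45.0 CPM in the 7 and 15.5 to 27.7 CPM in the 17. The full list of 5 markers of these cells, Pvalb among them, differed less between groups. Against the Control mean, Pvalb was 52.5% higher in MS_EC12 and 13.7% higher in Control_EC12 libraries. The sum of the 5 was 7.47% higher in MS_EC12 and 1.05% lower in Control_EC12 libraries. Astrocyte markers summed to 852 to 1041 CPM in the 7 and 988 to 1273 CPM in the 17, and striatal genes to 553 to 1135 CPM and 425 to 854 CPM. Within the 17, 2 of 5 astrocyte markers were called lower in MS_EC12 against Control (median 0.01), where 1.01% of all genes were called. In MS_EC12 against Control_EC12 there, 1 of the 5 was called lower (median −0.33), where 0.162% of all genes were called. No neuronal, interneuron, oligodendrocyte, microglial or striatal marker passed in MS_EC12 against Control there. By group, the neuronal sum was 6037 ± 515 CPM in MS_EC12 and 6807 ± 230 CPM in Control libraries (SD, n = 6 each). Of these 7 genes 1 fell in MS_EC12 against Control, where 6.8% of all genes did. The sum of 5 red blood cell genes was 386 ± 141 CPM in MS_EC12 and 244 ± 35.0 CPM in Control libraries (SD, n = 6 each). Of the 5, 4 rose, against 7.31% of all genes. In the 17 libraries 0 of the 5 passed, at a median of 0.73. Olfactory bulb genes summed to 51.3 to 309.9 CPM in MS_EC12, 21.9 to 159 CPM in MS, 116 to 378 CPM in Control_EC12 and 32.3 to 195 CPM in Control libraries. All 6 were above 0 in MS_EC12 against MS (median 0.83; 0.72 in the 17 libraries) and in Control_EC12 against Control (median 0.98; 1.12 in the 17, each with an unadjusted p under 0.05 there), and 0 passed. Endothelial markers summed to 119 ± 11.3 CPM in MS_EC12, 114 ± 12.1 CPM in MS, 138 ± 18.1 CPM in Control_EC12 and 138 ± 27.4 CPM in Control libraries (SD, n = 6 each). Meningeal fibroblast markers summed to 59.9 ± 7.27 CPM in MS_EC12, 52.8 ± 3.73 CPM in MS, 75.5 ± 15.6 CPM in Control_EC12 and 61.3 ± 5.48 CPM in Control libraries (SD, n = 6 each). In all 24 libraries 1 of 5 endothelial and 0 of 5 meningeal markers fell in MS_EC12 against Control, where 6.8% of all genes did. Their medians were 0.05 and −0.05. For the same comparison in the 17 libraries the median was −0.33 over the endothelial and −0.20 over the meningeal markers, and 0 passed. The part of these markers in the members' differences was not tested. Muscle markers, relevant to the muscle isoforms, summed to 7.03 to 10.2 CPM in MS_EC12, 6.04 to 9.95 CPM in MS, 5.68 to 13.2 CPM in Control_EC12 and 6.72 to 8.12 CPM in Control libraries.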

How the data were processed

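RNA of the prefrontal cortex was isolated with ISOGEN II, per the labels' protocols, before a strand-marking mRNA library kit was used. Tools named without roles in the submitters' processing notes are HISAT2 2.1.0 and StringTie 2.1.3b, along with FastQC 0.11.7 and Trimmomatic 0.38, besides DESeq2; the build is mm10. How reads were assigned to genes, and by which strand rule, is not stated there, so reads of overlapping genes could not be told apart (18 members overlap another protein-coding gene). The table deposited by the authors holds unnormalized read counts per gene, used for every main result, and TPM values that the authors made, used to compare genes and as an alternative.

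Counts were tested in edgeR 4.0.16 (R 4.3.3): filterByExpr (minimum count 10, minimum total 15), TMM scaling, 1 coefficient per group over all 24 libraries, quasi-likelihood F tests, 2-sided, Benjamini-Hochberg over 18380 genes, calls at an adjusted p under 0.05. CPM values use TMM scaling; log2 CPM a prior count of 2. No 2 libraries were alike within sampling noise (smallest chi-square per gene 5.02). GC and length came from GENCODE transcripts (GRCm38), coordinates and promoter windows from RefSeq. The code was tested on simulated data.

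Named were up to 12 called members of smallest p per comparison and direction, otherwise the 2 of smallest p; fixed lists of core subunits and isoforms; and the most and least abundant member of each complex. The values of 1 member of the fixed lists are not reported here, though it is in the counts of calls and the sums over members. Other genes named in the text, such as Atp5md and Ndufc2, were chosen after their values were seen. Members and lists were chosen with earlier results of these data known. Alternatives were DESeq2 1.42.0 and its size factors, no filter, a replicate block, a GC offset, TPM with limma 3.58.1 on log2(TPM + 1) or log2(TPM + 0.1), subsets of libraries and leaving out each library.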

Additional observations from a re-analysis of the deposited data

Results flagged for a closer look

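In groups of 6 libraries, the highest or lowest library was set apart when its gap to the nearest other exceeded 0.625 of the group's range. This was looked at for 228 groups of named genes and sums; 36, or 15.8%, stood apart, where chance gives about 1 in 20, and 23 of the 36 were MS replicate 3. The values of 1 library are not independent of each other, and no cause was tested.

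In MS replicate 3, a library with a GC slope above 0, the sums were highest in their group for complex I (3228 CPM), complex IV (2766 CPM), complex V (4340 CPM) and all 88 genes (12147 CPM, against 10800 to 11069 CPM in the other MS libraries). In complex I it was highest for Ndufa7 at 76.2 CPM, Ndufs7 at 74.3 CPM, Ndufs8 at 81.1 CPM and Ndufv1 at 173 CPM, and lowest for Ndufs1 at 103 CPM. In complexes II and III it was highest for Sdhb at 124 CPM, Cyc1 at 149 CPM, Uqcrc1 at 238 CPM and Uqcrfs1 at 119.6 CPM, and lowest for Uqcrc2 at 127 CPM. In complex IV it was highest for Cox4i1 at 534 CPM, Cox6a1 at 264 CPM, Cox6a2 at 7.90 CPM, Cox6b1 at 242 CPM and Cox8a at 384 CPM. In complex V it was highest for Atp5b at 1216 CPM, Atp5c1 at 233 CPM, Atp5g1 at 139 CPM and Atp5g2 at 95.7 CPM.

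Control_EC12 replicate 4 was the highest of its group for Atp5c1 at 293 CPM, Cox4i2 at 2.43 CPM, Cox7a2l at 187 CPM, Cox7b at 183 CPM, Ndufa4 at 305 CPM, Ndufs3 at 124 CPM and Uqcrb at 87.8 CPM. Control_EC12 replicate 3 was the lowest for Ndufs1 at 75.6 CPM and Sdha at 288 CPM. Control replicate 4 was the highest for Cox4i1 at 448 CPM, and Control replicate 3 the highest for Ndufa4 at 212 CPM and the lowest for Ndufs8 at 60.02 CPM. MS_EC12 replicate 1 was the highest for Cox7a1 at 1.35 CPM.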

How the results depend on the processing

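For MS_EC12 against Control, the count of members called, 56, was 12 without a filter on low counts (1.07% of all genes called), 3 in the 17 libraries of GC slope below 0 (1.01%), 0 with a term for the slope's sign (0.0762%) and 8 on TPM without a filter (2.62%); it was 70 with the replicate number as a block (32.3%) and 58 with the block and the GC offset (19.0%). The median in MS_EC12 against Control was 0.0955 in the 17 libraries, 0.0888 with the term, 0.200 on log2(TPM + 1), 0.201 on log2(TPM + 0.1) and 0.199 on TPM without a filter. For MS_EC12 against MS, 22 members were called by DESeq2 (10.3%), 45 with the replicate block (20.7%), 1 of them lower, and 19 with block and GC offset (4.77%). The median there was 0.0528 in the 17 libraries and 0.0764 with the term. In the 17 libraries, MS_EC12 against Control_EC12 had 1 call (0.162%), and Control_EC12 against Control a median of −0.013. Leaving out 1 library gave 0 to 76 calls and medians of 0.306 to 0.387 in MS_EC12 against Control, 0 to 58 and 0.224 to 0.324 in MS_EC12 against MS, 0 to 5 and 0.145 to 0.281 in MS_EC12 against Control_EC12, 0 and 0.049 to 0.193 in Control_EC12 against Control, 0 and 0.0483 to 0.0892 in MS against Control, and 0 and 0.0499 to 0.218 in the interaction. Signs turned in the 17 libraries for MS_EC12 against Control in Sdha (0.0221), Uqcrc2 (0.0466), Ndufs1 (0.107), Ndufv1 (−0.00528), Atp5a1 (−0.0165), Ndufb4c (−0.0565) and Atp5pb (0.129), for MS_EC12 against Control_EC12 in Uqcrc2 (0.0483) and Sdha (0.0312), and for MS_EC12 against MS in Ndufs1 (0.00853). For Control_EC12 against Control they turned in Ndufs1 in the 17 libraries (0.00316), with the term (0.0677) and without Control_EC12 replicate 3 (0.00766; −0.16 at the other end of such omissions), and in Sdha with the term (0.0249). On TPM, MS_EC12 against Control turned in Sdhd (−0.0199, −0.02 and −0.0199) and Atp5a1 (−0.0033). There, Cox4i2 turned with the term (−0.0423), and Cox6b2 with the GC offset (−0.043), block and offset (−0.0844), the term (−0.103), TPM (−0.0646, −0.0818 and −0.0646) and without MS_EC12 replicate 6 (−0.132, other end 0.215). Cox7b2 turned with the offset (0.587), block and offset (0.549) and without MS_EC12 replicate 2 (0.0134, other end −0.393), and Atp5pb with the offset (0.336), block and offset (0.326), the term (0.0388) and without MS_EC12 replicate 6 (0.0307, other end −0.0921). The cause was not tested. Of 36 same-numbered pairs of libraries from different groups, 13 correlated above 0.1; these include all 6 pairs of replicate 1 (0.122 to 0.36) and 3 pairs of replicate 3 (0.435 to 0.575), whose 3 libraries have GC slopes above 0. Since not every pair was above 0.1, the numbers were not taken to pair samples. The 2 MS_EC12 libraries of GC slope below 0 limit the precision there.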
